A study of Rattus norvegicus with 56 samples.

Results

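The rat miRNAs rno-miR-10a-5p, rno-miR-10b-5p, rno-miR-99a-5p, rno-miR-99b-5p, rno-miR-100-5p, rno-miR-125a-5p and rno-miR-125b-5p were followed in the hippocampus after traumatic brain injury (TBI). They were taken by name and are 7 of the 367 mature miRNAs in the count table. That table lists 309 of its miRNAs as 5p arms and 5 as 3p arms, so shares and ranks below hold within a table of mostly 5p arms. All 7 were detected in all 56 libraries. Each library came from the hippocampus of a different rat that had undergone either fluid percussion injury (TBI) or sham surgery. There were 4 TBI and 4 sham rats at each of the 7 post-injury intervals of 24 h, 2 weeks, 1 month, 2 months, 3 months, 6 months and 1 year, and each TBI group was compared with the sham group of its own interval. The labels give no strain, sex or age. The tissue was taken whole, so fewer cells of a type and less RNA per cell cannot be told apart.

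A mature miRNA guides a silencing complex to messenger RNAs mainly through its seed, bases 2 to 8 from the 5′ end. miR-10, miR-99 and miR-100 are close relatives within one ancient family. miR-10a and miR-10b lie in the Hox gene clusters, which pattern the trunk and hindbrain, and are known to be low in forebrain. The genes of miR-99, miR-100 and miR-125 lie with let-7 genes in clusters that are abundant in brain, and miR-125b is known from neurons and astrocytes. In the GRCr8 annotation of RefSeq, Mir99b, Mirlet7e and Mir125a neighbour each other inside Spaca6 on chromosome 1, Mir100, Mirlet7a-2 and Mir125b1 neighbour each other within Mir100hgl on chromosome 8, and Mir99a, Mirlet7c1 and Mir125b2 lie together on chromosome 11. Mir10a lies beside Hoxb4 on chromosome 10 and Mir10b lies within Hoxd4 on chromosome 3.

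The mature sequences below were matched by name in RefSeq for 6 of the 7 miRNAs and are shown because the shared seeds and near-identical bodies define the family groups and bear on how reads could be assigned. Capitals mark the seed, and each sequence is 5′ to 3′.
miR-10a-5p: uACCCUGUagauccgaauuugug
miR-10b-5p: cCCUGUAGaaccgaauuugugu
miR-99b-5p: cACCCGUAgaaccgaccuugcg
miR-100-5p: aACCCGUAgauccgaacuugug
miR-125a-5p: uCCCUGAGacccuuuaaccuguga
miR-125b-5p: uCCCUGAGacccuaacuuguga
In GRCr8 they lie on the plus strand at chr10:81779730-81779752 (miR-10a-5p), chr3:80035886-80035907 (miR-10b-5p), chr1:67350070-67350091 (miR-99b-5p), chr8:50798307-50798328 (miR-100-5p), chr1:67350689-67350712 (miR-125a-5p) and, for the Mir125b2 copy, chr11:29732588-29732609 (miR-125b-5p). miR-99a-5p is named only.

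The seed ACCCGUA was shared by miR-99b-5p and miR-100-5p, and CCCUGAG by miR-125a-5p and miR-125b-5p. miR-99b-5p and miR-100-5p had the same length of 22 bases and differed at 4 positions (C1A, A11U, C16A and C21U, counted from the 5′ end of miR-99b-5p). miR-125a-5p and miR-125b-5p were identical over their first 13 bases. miR-10b-5p is annotated 2 bases further 3′ than miR-10a-5p. Aligned with that offset they differed at 1 of 21 bases (U12A, counted in miR-10a-5p), and the offset gave them different seeds, ACCCUGU and CCUGUAG. miR-10a-5p and miR-100-5p shared an 11-base run, and differed at 3 of 22 aligned bases. How the counting divided reads that fit more than 1 of these sequences is not given in the sources used here, so the split between close relatives is uncertain. Among the 6 miRNAs with a sequence, this bears on miR-10a-5p and miR-10b-5p, whose counts were small beside those of miR-100-5p. miR-99a-5p could not be compared by sequence here. The counts of miR-100-5p were 0.0670 to 0.135 of those of miR-99a-5p, so any reads that fit both would bear on miR-100-5p as well.

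The libraries held a median of 5332930 miRNA counts, and 55 of them held between 2083604 and 12468979. The exception was the TBI rat X747 at 2 months, with 69628 counts, which held 1 count each of miR-10a-5p and miR-10b-5p. For a single count in that library the exact (Clopper-Pearson) 95% interval reached from 0.364 to 80.02 CPM (counts scaled to a library of 1000000), and this covers counting error only. Levels are given below as CPM after TMM scaling of the library sizes. The 7 miRNAs are short RNAs of nearly equal length (22 to 24 bases for the 6 with a sequence), so CPM were compared between them without a length correction. Unequal capture of different miRNAs by the library kit remains in such comparisons.

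The 7 miRNAs together took a median of 18.2% of the counts of a library in this table, from 13.4% in TBI rat X749 at 2 months to 26.3% in TBI rat X769 at 1 month. miR-99a-5p ranked 3 of the 367 listed miRNAs by median level. It had a median of 111939 CPM in the 28 sham rats (lowest 70101, highest 129511) and 110818 CPM in the 28 TBI rats (lowest 85104, highest 221435). miR-125b-5p ranked 8, with a sham median of 36957 CPM (30273 to 48065) and a TBI median of 37148 CPM (27997 to 47688). miR-125a-5p ranked 14, with sham 18167 CPM (12544 to 24501) and TBI 16467 CPM (10675 to 22357). These ranges overlapped between sham and TBI rats for all 3.

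miR-100-5p ranked 18, with a sham median of 11079 CPM (9348 to 13019) and a TBI median of 12129 CPM (8418 to 17163). miR-99b-5p ranked 22, with sham 8681 CPM (5513 to 10777) and TBI 8400 CPM (7312 to 17925). The Hox-linked pair was far lower. miR-10a-5p ranked 168, with a sham median of 15.96 CPM (7.22 to 112.9) and a TBI median of 22.4 CPM (6.48 to 53.6). miR-10b-5p ranked 198, with sham 5.11 CPM (1.68 to 15.5) and TBI 5.24 CPM (1.71 to 22.9). Together miR-10a-5p and miR-10b-5p took a median of 0.00246% of the counts. Other miRNAs of the Hox clusters were lower still. miR-196a-5p had at most 5 counts in any library and none in 22 of 56, miR-196b-5p at most 3 counts and none in 44, and miR-196c-5p and miR-615 had 0 counts in all 56. A count of 0 allows up to 0.241 CPM in the deepest library and 43.1 CPM in that of rat X747 (3 counts).

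**Figure D1:**
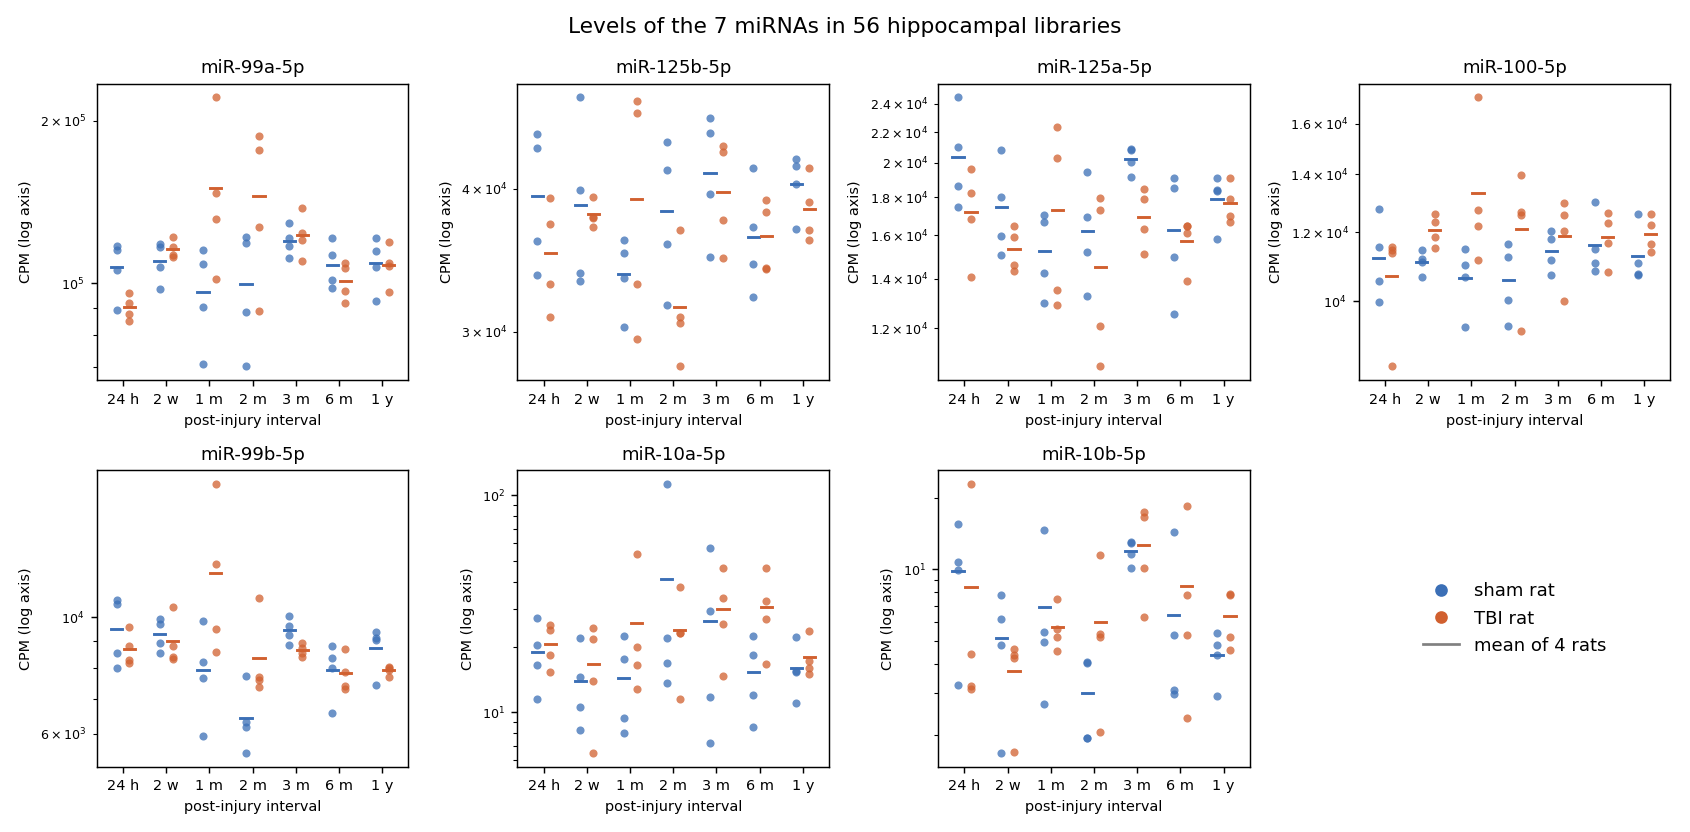
Each panel plots the CPM of 1 miRNA on a log axis against the post-injury interval, with a point per rat (blue sham, orange TBI) and a bar at the mean of 4. The 5 abundant miRNAs lie between 5513 and 221435 CPM with most points close together, whereas miR-10a-5p (6.48 to 112.9 CPM) and miR-10b-5p (1.68 to 22.9 CPM) scatter widely within groups.

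The order of the levels was steady. Within single sham libraries, miR-99a-5p exceeded miR-125b-5p in 28 of 28, by a median of 2.90-fold (1.96 to 3.58). miR-125b-5p exceeded miR-125a-5p in 28 of 28 (median 2.25-fold), miR-125a-5p exceeded miR-100-5p in 28 of 28 (median 1.59-fold), and miR-100-5p exceeded miR-99b-5p in 28 of 28 (median 1.28-fold, lowest 1.09). The gap between miR-100-5p and miR-99b-5p was 0.41 ± 0.21 on the log2 scale (SD, n = 28), the narrowest of the order. miR-99b-5p stood a median of 520.3-fold above miR-10a-5p (56.0 to 1218). miR-10a-5p exceeded miR-10b-5p in 25 of 28 sham libraries, with a log2 ratio of 1.57 ± 1.30 (SD, n = 28), so this last pair was not separated beyond its spread. Over all 56 libraries the order of miR-125a-5p and miR-100-5p held in 53 and that of miR-100-5p and miR-99b-5p in 54.

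Rats of the same group agreed closely for the abundant miRNAs and poorly for the miR-10 pair. The pooled SD within groups, on the log2 CPM scale, was 0.15 for miR-100-5p, 0.18 for miR-125b-5p, 0.21 for miR-99b-5p, 0.22 for miR-125a-5p and 0.25 for miR-99a-5p, against a median of 0.30 over the 244 miRNAs that passed the filter on all libraries. It was 0.77 for miR-10a-5p and 0.80 for miR-10b-5p. At their median counts of 106 and 36 in the 55 deeper libraries, counting error has an SD of 0.14 and 0.24. The spread was not even over the intervals. In the TBI groups of 1 month and 2 months the median SD of the 244 miRNAs was 0.38 and 0.50, against 0.14 to 0.26 in the other 5 TBI groups, and for the 5 abundant members it reached 0.48 and 0.49. The TBI group of 2 months holds rat X747 with 69628 counts, so counting error of low miRNAs enters its median SD. How much was not tested. The sample numbers in the titles of 1 month and 2 months follow those of 1 year, out of the order of the intervals. Whether these libraries were handled apart is not given, and any such batch cannot be told apart from the interval.

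The first question the design poses is whether TBI altered these miRNAs at each interval. The counts of each interval were fitted on their own 8 libraries with edgeR's quasi-likelihood test, and an miRNA was called at a Benjamini-Hochberg adjusted p under 0.05. All 7 miRNAs were tested at every interval, and 0 of 7 were called at any of them. Among all miRNAs tested, the share called was 1.72% at 24 h, 0.417% at 1 month, and 0% at 2 weeks, 2 months, 3 months, 6 months and 1 year. At an unadjusted p under 0.05 the test counted 1 of the 7 at 2 weeks, 2 at 1 month, 1 at 3 months, 1 at 6 months, and 0 at 24 h, 2 months and 1 year. Over all miRNAs tested, 13 of 233 did so at 24 h, 21 of 227 at 2 weeks, 43 of 240 at 1 month, 20 of 236 at 2 months, 13 of 220 at 3 months, 10 of 224 at 6 months and 18 of 225 at 1 year. The share of all tested miRNAs whose TBI and sham ranges did not overlap was 4.29% at 24 h, 5.29% at 2 weeks, 10% at 1 month, 5.08% at 2 months, 4.09% at 3 months, 1.34% at 6 months and 5.33% at 1 year. Of the 7 members this held for miR-100-5p at 2 weeks and miR-125a-5p at 3 months, and for none at the other 5 intervals.

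At 24 h the mean of 6 of the 7 miRNAs was nominally lower after TBI on the log2 CPM scale, and none passed the test. miR-99a-5p averaged 90182 ± 4879 CPM in TBI rats and 107014 ± 12763 CPM in sham rats (SD, n = 4 each), with all 4 TBI rats under the sham median but with overlapping ranges. Its log2 fold change was -0.25 ± 0.11 (SE), with an adjusted p = 0.869 by edgeR. The median log2 fold change of the 7 was -0.16, beside -0.01 over all 233 miRNAs tested.

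At 2 weeks miR-100-5p was at 11508, 11839, 12590 and 12333 CPM in the 4 TBI rats and at 11092, 11469, 10675 and 11188 CPM in the 4 sham rats. Every TBI rat lay above every sham rat, by a margin that was small beside the levels. The log2 fold change was 0.14 ± 0.06 (SE) with an adjusted p = 0.387 by edgeR. The two-sided exact permutation test of log2 CPM gave p = 0.0286, the smallest value that 35 splits of 8 rats allow, without adjustment for the 49 such comparisons of 7 miRNAs at 7 intervals.

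For miR-99a-5p, miR-99b-5p and miR-100-5p the largest difference of the 7 intervals stood at 1 month. miR-99a-5p was at 101852, 221435, 131369 and 146757 CPM in TBI rats X756, X769, X757 and X768, and at 70801, 90397, 115073 and 108457 CPM in sham rats X783, X795, X784 and X794. Rats X769, X757 and X768 exceeded every sham rat, and X756 lay within the sham range. miR-99b-5p, of the same seed family, was at 9485, 17925, 8585 and 12621 CPM in the TBI rats and at 5955, 7659, 9836 and 8227 CPM in the sham rats, in the same order of rats, with X769 and X768 above the sham range. miR-100-5p was at 11155, 17163, 12212 and 12737 CPM after TBI and at 9348, 10653, 11483 and 11014 CPM after sham surgery. Rat X769 was the highest of the 56 libraries for all 3.

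The log2 fold changes at 1 month were 0.71 ± 0.25 (SE) for miR-99a-5p, 0.69 ± 0.25 for miR-99b-5p and 0.39 ± 0.18 for miR-100-5p, with adjusted p = 0.197, 0.206 and 0.273 by edgeR. The exact permutation test gave p = 0.0857, 0.0857 and 0.0571, unadjusted. Without rat X769 the log2 fold changes were 0.40, 0.38 and 0.18. In a joint fit of all 56 libraries, which shares 1 estimate of the spread over the intervals, all 3 were called, with log2 fold changes of 0.64, 0.62 and 0.33 and adjusted p = 0.00762, 0.00430 and 0.0341 by edgeR, where 18.4% of the 244 miRNAs tested were called (45). The SD of log2 CPM at 1 month was 0.47, 0.48 and 0.27 in the TBI rats and 0.32, 0.30 and 0.13 in the sham rats. Pooled over all groups it was 0.25, 0.21 and 0.15, so a shared estimate understates the spread of these TBI rats. The sum of the neuron-enriched miRNAs (7 listed by their 5p arms) was carried by miR-9a-5p, with a median of 198722 CPM in a median sum of 246118 CPM, while miR-124-5p, miR-137-5p and miR-153-5p had medians of 204 CPM or less and miR-128-2-5p had 0 counts in 10 libraries. The list summed to 148557 to 229742 CPM in the TBI rats and 216887 to 280715 CPM in the sham rats at 1 month, and their part in these differences was not tested.

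miR-125a-5p and miR-125b-5p, which carry the other seed, did not follow this order of rats. miR-125a-5p was at 22357, 12897, 13531 and 20326 CPM in TBI rats X756, X769, X757 and X768, and at 14254, 16660, 17020 and 12979 CPM in the sham rats. The rat highest for miR-99a-5p, X769, was thus lowest among the TBI rats for miR-125a-5p, and X756 was highest. miR-125b-5p was at 47688, 29578, 33017 and 46531 CPM in the same TBI rats and at 35144, 36078, 33404 and 30273 CPM in the sham rats. It ordered the TBI rats as miR-125a-5p did. Neither passed the test (log2 fold changes 0.23 ± 0.20 and 0.27 ± 0.18, SE, with adjusted p = 0.599 and 0.493 by edgeR).

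At 2 months miR-99a-5p again varied widely. It was at 127158, 89009, 187441 and 176342 CPM in TBI rats X747, X749, X748 and X750, and at 70101, 118890, 88549 and 121984 CPM in sham rats X751, X777, X752 and X776. Rats X747, X748 and X750 exceeded every sham rat, and X749 lay within the sham range. The log2 fold change was 0.53 ± 0.26 (SE) with an adjusted p = 0.544 by edgeR, and leaving out 1 rat moved it between 0.39 (without X748) and 0.71 (without X749). The neuron-enriched sum was 355355 CPM in X749, the highest of the 56 libraries, against 181806 to 211282 CPM in the other TBI rats and 167520 to 232794 CPM in the sham rats, and the vessel wall and endothelial sum was highest of all in X750 (2077 CPM). Their part in these differences was not tested. miR-99b-5p was at 7691, 7588, 10861 and 7367 CPM in the TBI rats and at 6179, 7728, 5513 and 6327 CPM in the sham rats, with X748 alone above all others. miR-125b-5p was at 30544, 30913, 36804 and 27997 CPM after TBI and at 35807, 43913, 31691 and 41525 CPM after sham surgery, so 3 TBI rats lay below all sham rats (log2 fold change -0.30 ± 0.15, SE, adjusted p = 0.574 by edgeR).

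At 3 months miR-125a-5p was at 16308, 18450, 17875 and 15117 CPM in the TBI rats and at 20843, 20059, 19126 and 20907 CPM in the sham rats. All 4 TBI rats lay below all 4 sham rats. The log2 fold change was -0.22 ± 0.06 (SE), the adjusted p = 0.318 by edgeR, and the exact permutation p = 0.0286, unadjusted. The choroid plexus miRNAs (3 listed, all detected in every library) summed to 3284 to 4138 CPM in these TBI rats and to 2591 to 20830 CPM in the sham rats, and their part in this difference was not tested. Over all 56 libraries miR-204-5p carried this sum, with a median of 2136 CPM in a median sum of 2194 CPM. miR-125b-5p overlapped between the groups at 3 months, with 39732 ± 4271 CPM after TBI and 41300 ± 5116 CPM after sham surgery (SD, n = 4 each).

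At 6 months miR-10a-5p was at 32.5, 46.0, 16.6 and 26.8 CPM in the TBI rats, from 165, 262, 45 and 89 counts, and at 22.5, 11.98, 18.3 and 8.59 CPM in the sham rats, from 106, 44, 88 and 37 counts. Of the TBI rats, 3 exceeded every sham rat and 1 lay within the sham range. The leukocyte and microglia miRNAs (4 listed, miR-223-5p at 0 counts in 5 of the 56 libraries and miR-155-5p in 1) summed to 1215, 1520, 1565 and 1470 CPM in these TBI rats and to 1038 to 1283 CPM in the sham rats, and their part in this difference was not tested. Over all 56 libraries miR-150-5p carried this sum, with a median of 961 CPM in a median sum of 1122 CPM. The log2 fold change of miR-10a-5p was 1.06 ± 0.33 (SE) with an adjusted p = 0.828 by edgeR, and the exact permutation test gave p = 0.0857, unadjusted. miR-10b-5p, its near-identical relative, overlapped at 6 months, with 2.37 to 18.5 CPM after TBI and 2.99 to 14.4 CPM after sham surgery. At 1 year the log2 fold changes of the 7 miRNAs ran from -0.15 ± 0.07 (miR-99b-5p, SE) to 0.48 ± 0.24 (miR-10b-5p, SE), and all their groups overlapped.

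**Figure D2:**
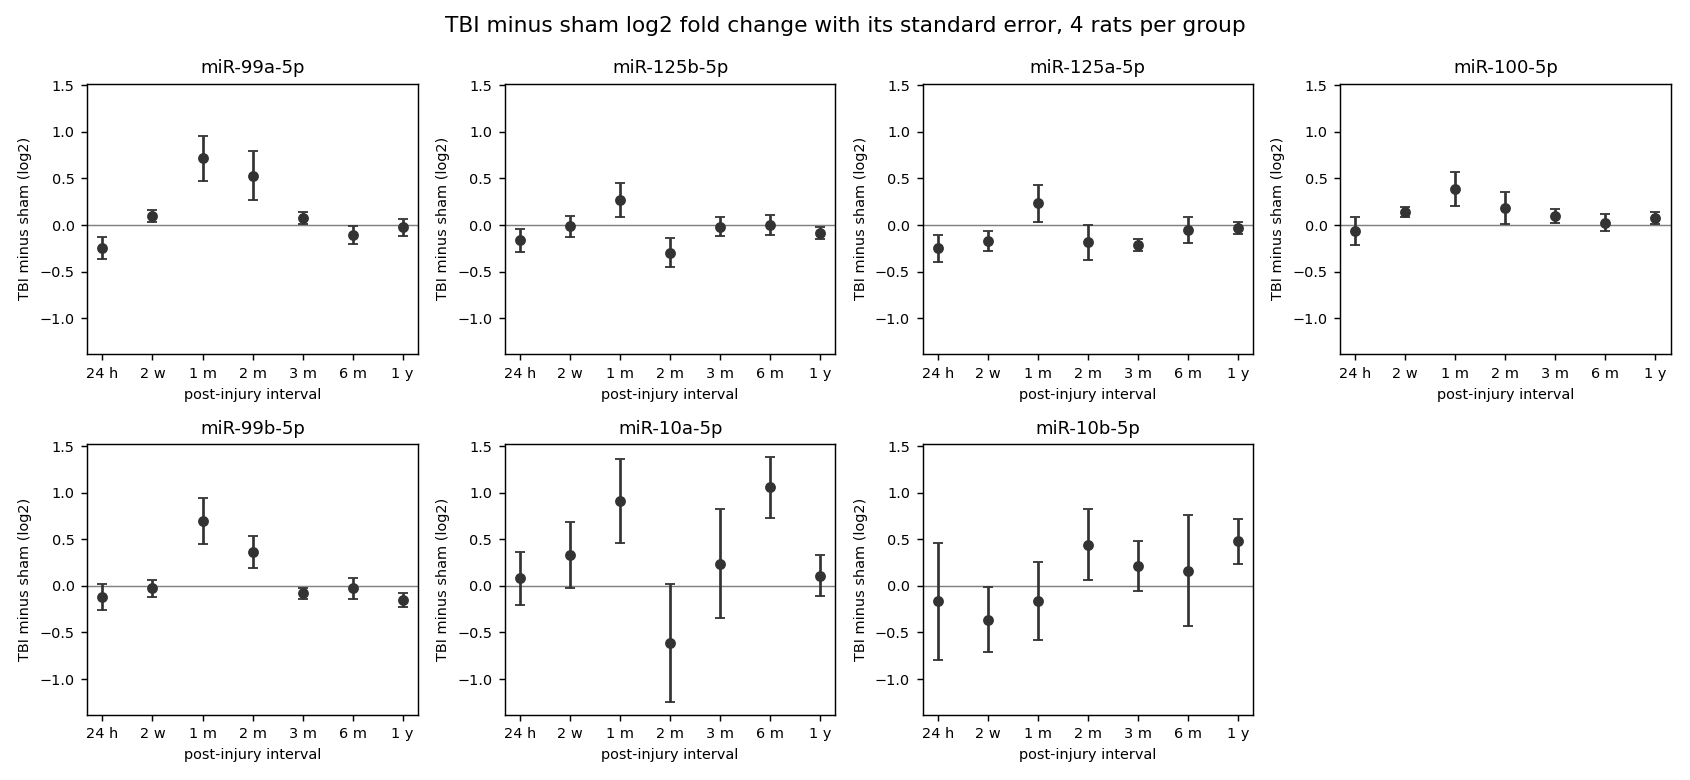
Each panel plots the TBI minus sham log2 fold change of 1 miRNA at each post-injury interval, with bars of 1 standard error and 4 rats per group. miR-99a-5p and miR-99b-5p stand highest at 1 month (0.71 and 0.69) and 2 months (0.53 and 0.36) and near 0 from 3 months, and the bars of miR-10a-5p and miR-10b-5p are the widest.

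The next question was whether the injury effect differed between intervals. Over all 56 libraries, edgeR's test of the 6 interaction terms called 7 of 244 miRNAs (2.87%) and 0 of the 7 members. miR-99b-5p came nearest with an adjusted p = 0.0532, followed by miR-99a-5p with an adjusted p = 0.0845, and the other 5 members had adjusted p-values from 0.533 to 0.961. The outcome for these 2 depended on the scaling, the test and single rats. With the size factors of DESeq2 the adjusted p by edgeR was 0.0392 for miR-99b-5p and 0.0476 for miR-99a-5p, and in DESeq2's own test 0.0143 and 0.0189. With at least 10 counts in every library it was 0.0841 and 0.116 by edgeR. Leaving out single rats gave adjusted p-values by edgeR from 0.0104 (without TBI rat X757 of 1 month) to 0.305 (without sham rat X783 of 1 month) for miR-99b-5p, and from 0.0116 (without TBI rat X749 of 2 months) to 0.317 (without X783) for miR-99a-5p. miR-99b-5p was also called without X749 (adjusted p = 0.0362).

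Averaged over the 7 intervals, edgeR called 12 of 244 miRNAs (4.92%) and 0 of the 7 members. The average log2 effect of TBI was 0.13 ± 0.06 (SE) for miR-99a-5p, 0.11 ± 0.04 for miR-100-5p and 0.08 ± 0.06 for miR-99b-5p, with adjusted p = 0.318, 0.194 and 0.562 by edgeR. Without TBI rat X749 of 2 months the value for miR-100-5p was 0.12 with an adjusted p = 0.0383. Without TBI rat X769 of 1 month the value was 0.08 for miR-99a-5p and 0.02 for miR-99b-5p. For miR-125a-5p it was -0.10 ± 0.06 and for miR-125b-5p -0.05 ± 0.05, with adjusted p = 0.374 and 0.636. As folds, the 95% intervals of these 5 averages ran from 0.859 at the lowest (miR-125a-5p) to 1.20 at the highest (miR-99a-5p). The 3 miRNAs of the miR-99 and miR-100 seed family were nominally higher and the 2 of the miR-125 family nominally lower. miR-10a-5p averaged 0.29 ± 0.21 and miR-10b-5p 0.07 ± 0.21, with fold intervals of 0.914 to 1.63 and 0.787 to 1.40, so changes of this size could not be resolved for the low pair. Without sham rat X776 of 2 months the value for miR-10a-5p was 0.46.

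Ratios of 2 members within a library do not depend on how libraries are scaled. In all, 7 ratios were compared between TBI and sham rats by a two-sided permutation test within intervals, adjusted over the 7. miR-99b-5p over miR-125a-5p, both from the chromosome 1 cluster, differed. Its mean log2 ratio was -0.88 ± 0.34 in TBI rats and -1.07 ± 0.18 in sham rats (SD, n = 28 each), a difference of 0.18 (1.14-fold) with a permutation p = 0.00399 and an adjusted p = 0.0279. The TBI mean was higher at 6 of 7 intervals, but unevenly. The log2 difference was 0.43 at 1 month and 0.55 at 2 months, and 0.02 to 0.14 at 24 h, 2 weeks, 3 months and 6 months. At 2 months the ratio was 0.721, 0.439, 0.605 and 0.609 in TBI rats X747, X749, X748 and X750 and 0.406, 0.397, 0.415 and 0.374 in the sham rats. The groups did not overlap there (exact permutation p = 0.0286, without adjustment for the 7 ratios at 7 intervals). They overlapped in every other ratio and interval.

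At 1 month the ratio of miR-99b-5p to miR-125a-5p was 1.39 in TBI rat X769, the only library of the 56 above 1, and the other 3 TBI rats (0.424, 0.634 and 0.621) ran over nearly the same values as the sham rats (0.418 to 0.634). At 1 year the direction was opposite, with 0.421 to 0.477 after TBI and 0.470 to 0.497 after sham surgery. Without rat X769 the average difference was 0.14 with an adjusted p = 0.0746, and without sham rats X783 or X795 of 1 month it was 0.17 and 0.18 with adjusted p = 0.0878 and 0.0790, so the call depended on single rats of that interval. Without the shallow library of rat X747 it was 0.17 with an adjusted p = 0.0468.

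**Figure D3:**
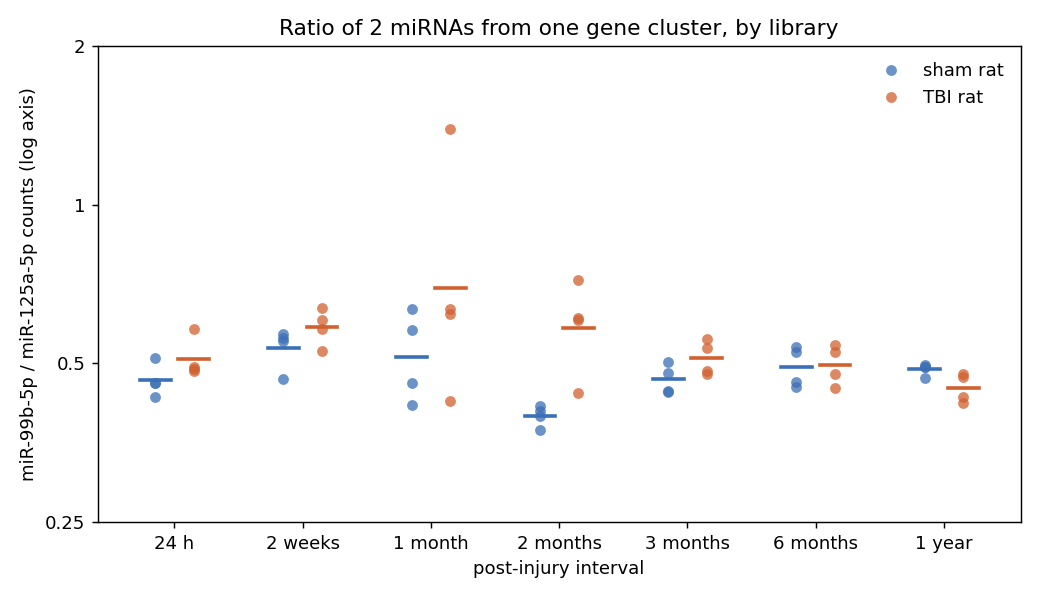
The counts of miR-99b-5p divided by those of miR-125a-5p are plotted on a log axis for each rat (blue sham, orange TBI) against the post-injury interval, with a bar at the geometric mean of 4. The TBI rats lie above the sham rats at 2 months (0.439 to 0.721 against 0.374 to 0.415), and rat X769 at 1 month stands alone at 1.39.

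The other 6 ratios did not pass the test. miR-99a-5p over let-7c-5p, a let-7 miRNA with a gene in its cluster, differed by 0.10 (log2, adjusted p = 0.393 by permutation), and miR-99b-5p over let-7e-5p by 0.09 (adjusted p = 0.393). Mature let-7c-5p has the same sequence at Mirlet7c1 on chromosome 11 and at Mirlet7c2 on chromosome 7. Its counts pool both genes, so this ratio is not of cluster neighbours alone. Among the ratios between relatives, miR-100-5p over miR-99a-5p differed by -0.03 on average (adjusted p = 0.634), from -0.33 at 2 months and -0.30 at 1 month to 0.17 at 24 h, miR-99b-5p over miR-99a-5p by -0.05 (adjusted p = 0.393) and miR-125a-5p over miR-125b-5p by -0.06 (adjusted p = 0.393), all by permutation. miR-10a-5p over miR-10b-5p differed by 0.25 (adjusted p = 0.50 by permutation), with SDs of 1.11 in TBI rats and 1.30 in sham rats. Over all 56 libraries the ratio of miR-125a-5p to miR-125b-5p stayed between 0.350 and 0.583, and that of miR-100-5p to miR-99a-5p between 0.0670 and 0.135.

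The members also differed in how they varied between rats of one group. In the 55 libraries with over 1000000 counts, the deviations from the group mean (log2 CPM) of miR-99a-5p were most like those of miR-100-5p (Pearson r = 0.70) and miR-99b-5p (r = 0.68) among the 243 other miRNAs, and those of miR-125b-5p most like those of miR-125a-5p (r = 0.72). miR-125a-5p was most like miR-191a-5p (r = 0.80), and miR-99b-5p most like miR-504 (r = 0.80) and miR-485-5p (r = 0.73), none of them family members. These values are descriptions, since members and partners share libraries and scaling. miR-99a-5p and miR-125a-5p showed r = -0.02, although miR-99a and miR-125b genes share a cluster and miR-125a and miR-125b share a seed.

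The likeness within seed families was higher at 1 month and 2 months, intervals picked out after the values were seen. Their TBI groups also had the widest spread over all miRNAs, and they include TBI rat X769. In the 15 libraries of those intervals miR-99a-5p and miR-100-5p had r = 0.96 and miR-125a-5p and miR-125b-5p r = 0.92, while miR-99b-5p and miR-125a-5p, neighbours in one cluster, had r = 0.13. In the 40 libraries of the other 5 intervals the corresponding values were 0.24, 0.53 and 0.76. The difference between these sets of libraries was not tested, nor was the part of reads that fit more than 1 close relative. miR-10a-5p and miR-10b-5p had r = -0.05 over the 55 libraries, and were most like miR-34c-5p (r = 0.44) and miR-143-5p (r = 0.46), a vessel wall miRNA.

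**Figure D4:**
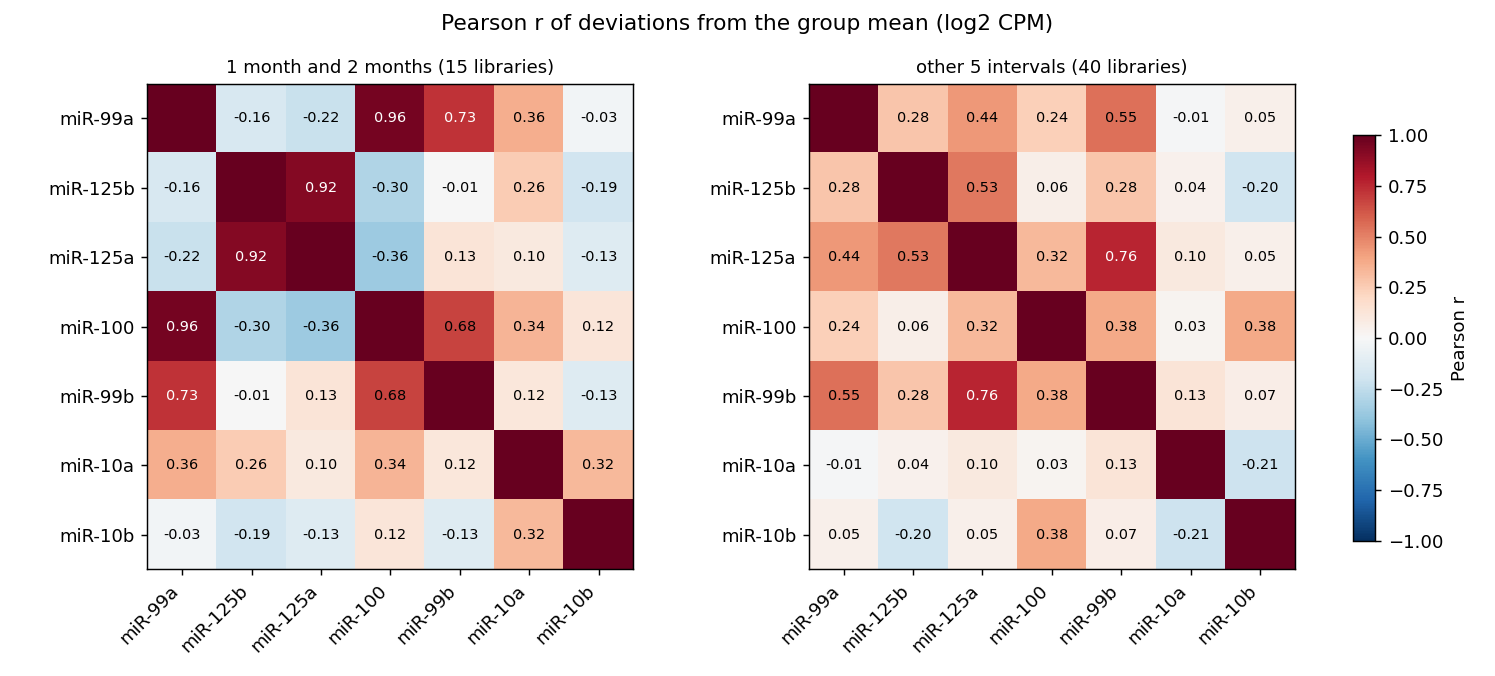
Each square gives the Pearson r between 2 of the 7 miRNAs for deviations from the group mean in log2 CPM, in the 15 libraries of 1 month and 2 months (left) and the 40 of the other intervals (right). On the left miR-99a, miR-100 and miR-99b give 0.68 to 0.96 with each other and miR-125a gives 0.92 with miR-125b, and on the right miR-99b and miR-125a stand out (0.76).

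The sham rats alone show how the levels varied over the study without injury. Across the 7 sham groups, edgeR's test of any difference called 65 of 240 miRNAs (27.1%) and 2 of the 7 members, miR-99b-5p (adjusted p = 0.0188) and miR-10b-5p (adjusted p = 0.0329). The count of members called was near the share over all miRNAs, so it does not set the members apart. miR-99b-5p was lowest at 2 months, with 6179, 7728, 5513 and 6327 CPM in the 4 rats, and highest at 24 h and 3 months, with means of 9474 ± 1414 and 9437 ± 502 CPM (SD, n = 4 each). miR-10b-5p was lowest at 2 months (3.01 ± 1.22 CPM) and highest at 3 months, with 12.97, 11.7, 10.1 and 13.1 CPM in the 4 sham rats. It also had its highest TBI mean at 3 months (12.6 ± 5.35 CPM). The choroid plexus miRNAs also had their highest sham median of summed CPM at 3 months (11043 CPM) and their lowest at 2 months (1270 CPM). Their sum was 2591 to 20830 CPM in the sham rats of 3 months and 1168 to 1864 CPM in those of 2 months, and all 8 rats of 3 months ranked between 1 and 15 of the 56 libraries. The sum of sham rat X79 of 1 year ranked 2 of 56 (19364 CPM). In the sham rats of that interval miR-10b-5p was at only 2.94 to 5.41 CPM. The part of the choroid plexus miRNAs in the level of miR-10b-5p was not tested. Between 24 h and 1 year in sham rats, 1.67% of miRNAs were called and 0 of the 7 members. miR-10b-5p differed by -1.17 ± 0.48 (log2, SE, adjusted p = 0.181 by edgeR). Age of the rats, time since surgery and any batch of an interval cannot be told apart here, and scaling by total count alone took miR-99b-5p out of the call (adjusted p = 0.0551). Leaving out sham rat X752 of 2 months took both out (adjusted p = 0.0588 and 0.0558). miR-10b-5p was also not called without X599 or X594 of 24 h, X751 or X777 of 2 months, or X78A or X60 of 3 months, with adjusted p up to 0.0613 by edgeR. Between 24 h and 1 year it was called without X457 of 24 h (-1.46, adjusted p = 0.0499).

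Over the 7 sham means, miR-100-5p ranged from 10577 to 11595 CPM, miR-125b-5p from 33725 to 41300 CPM and miR-99a-5p from 96182 to 119798 CPM. miR-125a-5p was highest at 24 h and 3 months (20389 ± 3118 and 20234 ± 833 CPM) and lowest at 1 month (15228 ± 1938 CPM), without passing the test (adjusted p = 0.0761 by edgeR), except without sham rat X457 of 24 h (adjusted p = 0.0475). The widest sham mean was that of miR-10a-5p at 2 months, 41.4 ± 47.8 CPM, which came from rat X776 with 112.9 CPM and 994 counts beside 13.7 to 21.9 CPM in the other 3 rats. The choroid plexus miRNAs summed to 1194 CPM in X776, 54th of 56 libraries, and the vessel wall and endothelial miRNAs (3 listed) to 1803 CPM, the third highest. In sham rat X57 at 3 months, where miR-10a-5p reached 57.0 CPM, the choroid plexus sum was the highest of all, at 20830 CPM. In sham rat X79 of 1 year, with the next highest sum of 19364 CPM, miR-10a-5p was at 22.1 CPM. The part of these cell types in the level of miR-10a-5p was not tested. Over all 56 libraries the sums ran from 1482 to 3317 CPM for oligodendrocyte miRNAs (3 listed), from 36.0 to 340.1 CPM for red blood cell miRNAs (2 listed) and from 821 to 2396 CPM for leukocyte and microglia miRNAs (4 listed).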

How the data were processed

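Small RNA libraries (NEBNext kit) from total hippocampal RNA of 56 rats were sequenced and demultiplexed with bcl2fastq 2.20.0.422, per the labels. Adapter trimming and assignment of reads to the mature miRNAs of miRBase were done by the authors with miRDeep2. Their deposited values are raw counts, not normalized and tied to no genome build. The treatment of reads that fit several miRNAs is not given in the sources used here. All 56 columns carry sample titles, and 0 were left out. The titles differ between all 56 libraries, those of 2 weeks and 6 months by tube number, and the authors report 56 rats. On that report, p-values measure spread between rats. As a check for a library deposited more than once, counts were compared within groups (among 84 pairs, chi-square divided by its degrees of freedom was at least 17.5), and no library was merged with another. The sample numbers in the titles repeat within groups up to 6 months. The sequencing run is not given in the labels, so it could not be used as a covariate, and any run effect was not tested.

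Counts were filtered with filterByExpr, scaled by TMM and tested with the quasi-likelihood test of edgeR 4.0.16 in R 4.3.3 (newer form of the fit), with Benjamini-Hochberg adjustment over all miRNAs tested and a threshold of 0.05. Libraries held 69628 to 12468979 counts. Each interval was fitted on its 8 libraries, and the interaction, average and sham comparisons on all relevant libraries. Standard errors are the log2 fold change over the square root of F. Displayed CPM and log2 CPM (prior count 2) used TMM factors over the 56 libraries. Single miRNAs were also compared by exact permutation (35 splits) and ratios, with 0.5 added to counts, by 100000 permutations within intervals (scipy 1.17.1). Likeness was Pearson's r of deviations from group means in libraries of over 1000000 counts. The edgeR fits were tested on simulated counts with known changes and the same dispersion for every miRNA, which the real counts do not have.

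Alternatives were DESeq2 1.42.0 and its size factors, scaling by total count, testing every detected miRNA, a minimum of 10 counts in each library, edgeR's likelihood ratio test, a joint fit, and leaving out each rat. The older quasi-likelihood fit was added after the data were seen. The miRNAs named were the 7 members, let-7a, let-7c and let-7e, the Hox-linked miR-196 and miR-615, the listed cell type miRNAs, and up to 3 miRNAs most like each member. Rats and miRNAs singled out beyond that rule were chosen after their values were seen. The members and lists were chosen with earlier results of these data known. Gene neighbours and sequences come from RefSeq GRCr8.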

Additional observations from a re-analysis of the deposited data

Results flagged for a closer look

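Among the 98 sets of 4 rats (7 miRNAs in 14 groups), 7 held a rat far from the other 3 by Dixon's test at the 95% level, and chance flags about 1 in 20 (4.9 of 98). For miR-10a-5p, sham rat X776 at 2 months was at 112.9 CPM beside 13.7 to 21.9 CPM in the others. For miR-10b-5p, TBI rat X460 at 24 h was at 22.9 CPM beside 3.14 to 4.42 CPM, from 128 counts, and TBI rat tube.21 at 2 weeks was at 1.71 CPM beside 4.22 to 4.63 CPM, from 5 counts. For miR-99b-5p, TBI rat X748 at 2 months was at 10861 CPM beside 7367 to 7691 CPM, and sham rat X77 at 1 year was at 7438 CPM beside 9045 to 9375 CPM. For miR-100-5p, TBI rat X453 at 24 h was at 8418 CPM beside 11366 to 11540 CPM. For miR-125a-5p, the lowest TBI rat at 6 months was at 13888 CPM beside 16111 to 16484 CPM. Why these rats differed was not tested.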

How the results depend on the processing

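At each interval 0 of the 7 members were called under the other settings, except 3 at 1 month in the joint fit. In that joint fit 45 of all 244 miRNAs tested (18.4%) were called at 1 month. With at least 10 counts in every library, miR-10b-5p was not tested at 2 weeks, nor miR-10a-5p and miR-10b-5p at 2 months. For the interaction, 0 became 2 with DESeq2 size factors, 1 with total count scaling, 2 with edgeR's likelihood ratio test and 2 with DESeq2, and 0 to 2 when single rats were left out. For the sham intervals, 2 became 1 with total count scaling and 1 with at least 10 counts in every library, where miR-10b-5p was not tested, and 0 to 3 when single rats were left out. The average effect gave 0 to 1 and the sham difference between 24 h and 1 year 0 to 1 when single rats were left out. The log2 difference in the ratio of miR-99b-5p to miR-125a-5p ran from 0.14 to 0.22. Which property of a setting or rat moved these values was not tested, apart from the smaller number of samples or miRNAs. Of 396 interval values of the 7 miRNAs under other settings, 5 changed sign, and of 392 with a rat left out, 40 did. As 0 of the 7 were called at any interval in the main fits, none of these could have been a called value.

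At 1 year the titles give 1 TBI and 1 sham rat the same number. With this number as a replicate block, 0 of 7 were called (miR-10b-5p 0.47 and miR-99b-5p -0.15 on the log2 scale, adjusted p = 0.541 for both by edgeR). The correlations of the 4 pairs' deviations were 0.064, -0.17, 0.326 and -0.016. These values were not tested and cannot settle whether rats of one number share more than the number. Depth limits miR-10a-5p and miR-10b-5p most, with as few as 1 count in the shallowest library.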
